A study of Mus musculus with 933 samples.

Results

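The genes described here are the mouse translation initiation factors other than eIF3. They were taken by name, as every row whose gene symbol begins with Eif1, Eif2, Eif4, Eif5 or Eif6 in all 12 deposited tables of single-embryo RNA-seq. The rule found 41 of the 23845 genes listed, and each table held all 41. Embryos of the FVB strain came from ICSI (intracytoplasmic sperm injection, the placing of 1 sperm directly into an egg), and each of the 933 libraries came from 1 embryo sequenced by Smart-seq2. Injected sperm were from the testis, the caput of the epididymis (its head, where sperm arrive) or the cauda (its tail, where mature sperm are stored). Two-cell embryos were labelled 18 h (19 caput, 25 cauda), 24 h (11 caput, 8 cauda) or 28 h (25 caput, 24 cauda) after ICSI. Four-cell embryos formed 3 cohorts, with 32 caput and 32 cauda in the first. The second held 22 caput-sperm embryos injected with EpiM miRNA, 21 injected with EpiM tRF, 23 uninjected caput and 23 cauda embryos. The third held 34 testis and 33 cauda embryos. There were 28 caput and 25 cauda embryos at the 8-cell stage, and 2 morula cohorts of 29 caput and 31 cauda embryos and of 34 testis and 34 cauda embryos. Of the 5 blastocyst cohorts, the first had 35 caput and 42 cauda embryos and the second 34 caput and 39 cauda embryos. The third had 25 caput-sperm embryos injected with EpiM small RNA, 26 injected with GFP RNA and 39 cauda embryos. The fourth had 30 caput-sperm embryos injected with EpiM miRNA, 30 injected with EpiM tRF, 32 uninjected caput and 31 cauda embryos, and the fifth 28 testis and 29 cauda embryos. All RNA was injected 3 hours after ICSI, into caput-sperm embryos, as the labels word it. The labels do not name the parents of an embryo. Session (the day given for an embryo) is a fixed term in the tests, so the p-values below measure the spread between embryos within sessions. They do not measure how a difference varies between sessions or parents.

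Initiation is the step at which a ribosome is placed on the start codon of an mRNA. The factor eIF2 brings the initiator tRNA, eIF1 and eIF1A hold the small subunit open while it scans, and eIF2B recharges eIF2 with GTP. The cap-binding protein eIF4E, the scaffold eIF4G and the helicase eIF4A load the mRNA, eIF5 and eIF5B lead to subunit joining, eIF5A helps the ribosome form peptide bonds, and eIF6 keeps free large subunits apart. In the early mouse embryo the mRNA stored in the egg is degraded while transcription from the embryo's own genome starts, in the main wave during the 2-cell stage, and egg-specific variants of several of these factors are known.

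Values are TPM (transcripts per 1000000, a share of the library's transcripts corrected for gene length), so a level is relative to the whole embryo and fewer cells of a type cannot be told apart from less RNA per cell. The libraries detected 4864 to 12629 genes at 1 TPM, with a median of 10627, and the read depth is unknown. The stage labels were checked against markers. The median sum of 8 genes of the 2-cell transcription burst was between 1896.0 and 4240.4 TPM in the 6 groups of 2-cell embryos and at most 34.1 TPM in all later groups. The median sum of 6 trophectoderm (outer blastocyst layer) markers was at least 6412.4 TPM in every blastocyst group and at most 994.3 TPM before. Median sums of 12 cumulus and follicle cell markers and of 7 sperm markers were at most 16.4 and 10.9 TPM, both at the 18 h point. In 8 libraries the correlation with the median profile of the group was under 0.9, against a median of 0.973 over all 933. Of these, 1 labelled as an 8-cell cauda embryo held the egg transcripts Oosp1 at 719.3 and Obox5 at 1473.9 TPM, and 1 labelled as an 8-cell caput embryo had a trophectoderm sum of 15539.1 TPM. Another was a 28 h cauda embryo with Obox5 at 5237.2 TPM, and 1 morula cauda library of the second cohort detected only 4864 genes. Among the rest, 1 further 8-cell caput library had a trophectoderm sum of 2838.7 TPM, and 1 more held Oosp1 at 167.2 and Obox5 at 361.3 TPM. In the third blastocyst cohort 1 EpiM library had a trophectoderm sum of only 275.0 TPM, and 1 GFP library had 2761.9 TPM.

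Promoter sequence is shown for 2 pairs of partner genes that moved in opposite directions between 18 h and 28 h in the 2-cell embryo, Eif1 with its paralog Eif1b, and Eif2b5 with Eif2b1, which encode the epsilon and alpha subunits of eIF2B. Each line gives the 250 bases before the annotated transcript start, 5′ to 3′ on the strand of the gene, from RefSeq on GRCm38.p6, which has the coordinates of mm10. For Eif2b5 the RefSeq gene position starts at 20498795, so the end of its window lies within the gene. Capitals mark matches on either strand to 4 motifs. These are the CCAAT box, searched by the 5 letters of its name, and the GC box, bound by Sp1 and searched as GGGCGG. The others are the TATA box, searched as TATAAA, and the motif of ETS factors, searched as CCGGAAG. No matches overlapped in these windows.
Eif1, chr11:100319699-100319948, strand plus: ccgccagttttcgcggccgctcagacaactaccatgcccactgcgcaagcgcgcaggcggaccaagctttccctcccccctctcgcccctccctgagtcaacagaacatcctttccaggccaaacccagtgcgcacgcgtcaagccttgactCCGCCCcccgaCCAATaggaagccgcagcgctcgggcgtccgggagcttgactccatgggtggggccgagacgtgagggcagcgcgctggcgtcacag
Eif1b, chr9:120492356-120492605, strand plus: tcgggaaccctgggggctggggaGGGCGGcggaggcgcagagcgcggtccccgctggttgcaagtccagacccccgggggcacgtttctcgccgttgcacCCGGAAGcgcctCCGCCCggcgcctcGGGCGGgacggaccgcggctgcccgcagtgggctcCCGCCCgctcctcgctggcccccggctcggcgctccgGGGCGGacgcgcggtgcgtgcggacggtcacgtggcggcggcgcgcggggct
Eif2b5, chr16:20498567-20498816, strand plus: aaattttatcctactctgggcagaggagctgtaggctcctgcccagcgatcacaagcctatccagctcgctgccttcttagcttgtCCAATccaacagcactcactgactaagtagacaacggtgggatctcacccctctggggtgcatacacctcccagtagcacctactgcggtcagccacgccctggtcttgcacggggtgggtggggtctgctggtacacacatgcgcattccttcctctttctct
Eif2b1, chr5:124579132-124579381, strand minus: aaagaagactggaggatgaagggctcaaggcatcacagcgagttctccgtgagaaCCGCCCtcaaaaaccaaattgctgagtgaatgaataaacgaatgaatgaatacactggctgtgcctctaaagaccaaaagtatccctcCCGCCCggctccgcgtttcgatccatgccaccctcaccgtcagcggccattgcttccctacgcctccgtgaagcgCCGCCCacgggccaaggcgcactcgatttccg
The Eif1 window held 1 CCAAT box and 1 GC box, and the Eif1b window held 5 GC boxes, 1 ETS motif and no CCAAT box. The Eif2b5 window held 1 CCAAT box and no GC box, and the Eif2b1 window 3 GC boxes and no CCAAT box. GC content was 66.8% for Eif1, 80.4% for Eif1b, 56% for Eif2b5 and 55.6% for Eif2b1, against a median of 52.4% over 32851 promoter windows of the same length. CCAAT was in 33.8% of all these windows, GGGCGG in 32.7%, TATAAA in 12.4% and CCGGAAG in 6.91%. Sequence was matched for 33 of the 41 genes, in 46 windows, of which 11 held CCAAT, 32 GGGCGG, 2 TATAAA and 7 CCGGAAG. A match describes the letters and is not a bound site.

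The largest differences among these genes were between times in the 2-cell embryo. The question is how the set of initiation factor RNAs changed between 18 h and 28 h, across the main wave of genome activation. In caput embryos 20 of 41 genes rose and 8 fell at 28 h against 18 h, and in cauda embryos 21 rose and 13 fell (limma with Benjamini-Hochberg adjustment over all genes tested, adjusted p under 0.05). Over all genes tested, 37% were called higher and 31.9% lower in caput embryos, and 33.6% and 38.7% in cauda embryos. The share of factors called in either direction, 68.3% in caput and 82.9% in cauda embryos, stood beside 68.9% and 72.3% of all genes tested. The median change of the factors was 0.33 and 0.41 on the log2(TPM + 1) scale in caput and cauda embryos, beside 0.03 and -0.14 for all genes. Both sperm sources gave the same direction for 19 genes that rose and 8 that fell, and no gene was called in opposite directions. The difference between the 2 changes was tested by interaction, and 0 of 41 factors and 0 of 13343 genes passed, with 7 factors and 1250 genes below 0.05 before adjustment. Among the factors Eif4b had the smallest p, and its change was higher by 0.42 ± 0.16 (SE) in caput than in cauda embryos, with an adjusted p of 0.42. Without the libraries that stood apart, 20 factors rose and 8 fell in caput embryos, and 22 rose and 13 fell in cauda embryos.

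**Figure D1:**
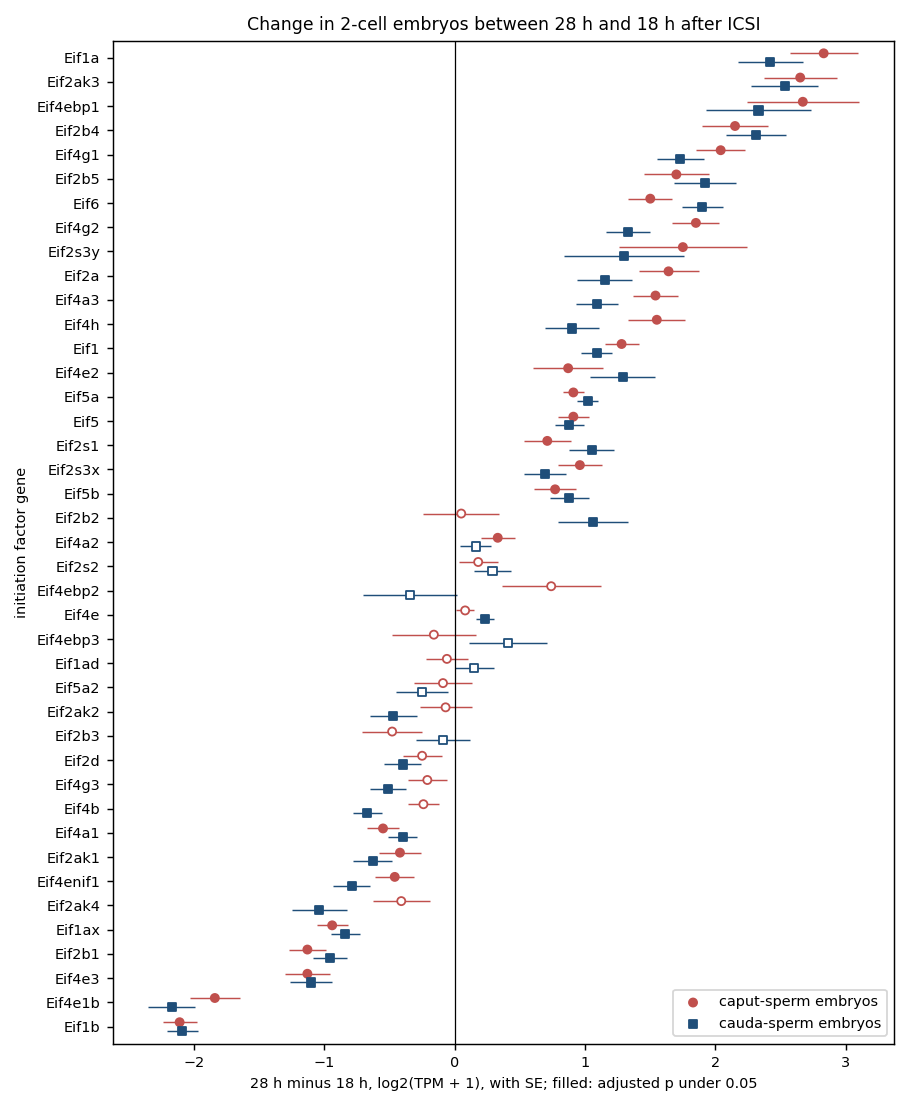
Change in log2(TPM + 1) between 28 h and 18 h for each of the 41 genes, with its SE, in caput-sperm (circles) and cauda-sperm embryos (squares); filled symbols had an adjusted p under 0.05. The genes run from a rise of 2.83 for Eif1a in caput embryos to a fall of 2.17 for Eif4e1b in cauda embryos, and the 2 sperm sources lie close together for most genes.

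The scanning factors split within each paralog pair. Eif1, the factor that guards start codon choice, had 782.5, 1552.8 and 1880.6 TPM (lowest, median and highest embryo) in 28 h caput embryos, against 227.5, 622.6 and 1055.6 TPM in 18 h caput embryos. The groups overlapped at the edges, and the level rose by 1.28 ± 0.13 (SE) log2 units, or 2.43-fold, with an adjusted p of 1.97e-16. Its paralog Eif1b had 97.8, 210.5 and 697.0 TPM in 28 h caput embryos, against 826.4, 933.4 and 1181.7 TPM in 18 h caput embryos. These 2 groups did not overlap, and Eif1b fell by 2.11 ± 0.13 log2 units (4.33-fold lower at 28 h, adjusted p of 2.27e-30). In cauda embryos Eif1 rose by 1.09 ± 0.12 (adjusted p of 1.59e-14) and Eif1b fell by 2.09 ± 0.12 (adjusted p of 3.03e-32). At 18 h the median of Eif1b was therefore above that of Eif1 in both sperm sources, and at 28 h below it. About 31.6% of the 50-base windows of the Eif1 transcript also occur in other annotated genes, and 0.811% of those of Eif1b, so reads of Eif1 may be shared.

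Eif1a and Eif1ax encode near-identical forms of eIF1A, Eif1ax from the X chromosome. Eif1a had 13.7, 42.1 and 82.2 TPM in 28 h caput embryos, against 1.64, 5.39 and 8.48 TPM in 18 h caput embryos. The groups did not overlap, and the rise was 2.83 ± 0.26 log2 units (7.1-fold, adjusted p of 9.46e-18). In cauda embryos Eif1a had 1.04, 39.4 and 81.6 TPM at 28 h, against 0, 5.67 and 15.7 TPM at 18 h, a rise of 2.42 ± 0.25 (adjusted p of 7.49e-16). The value of 1.04 TPM came from the 28 h cauda library that stood apart. Eif1ax had 81.7, 187.2 and 355.4 TPM in 28 h caput embryos, against 247.5, 353.3 and 452.3 TPM in 18 h caput embryos. Those groups overlapped in their tails, with a fall of 0.94 ± 0.12 in caput embryos (adjusted p of 1.37e-11) and of 0.84 ± 0.11 in cauda embryos (adjusted p of 4.88e-11). The eIF1A-related Eif1ad had no call in either source, with changes of -0.06 ± 0.16 in caput and 0.15 ± 0.15 in cauda embryos. The cluster of Eif1a-like genes of the 2-cell burst was counted apart. All 6 of the listed genes that the tables hold rose in both sources, beside 37% of all genes in caput and 33.6% in cauda embryos. They were listed as related genes of that burst, so their rise within the 2-cell stage is no separate result. Their median sum was 1397.7, 5965.4 and 3129.2 TPM at 18, 24 and 28 h in caput embryos. In cauda embryos it was 1823.5, 5489.4 and 3539.9 TPM, and the 24 h embryos came from another session. Gm8300, as an example, had a median of 610.8 TPM at 28 h against 208.4 TPM at 18 h in caput embryos. Eif1a shares 4.05% of its windows with other genes, among them Gm2016.

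**Figure D2:**
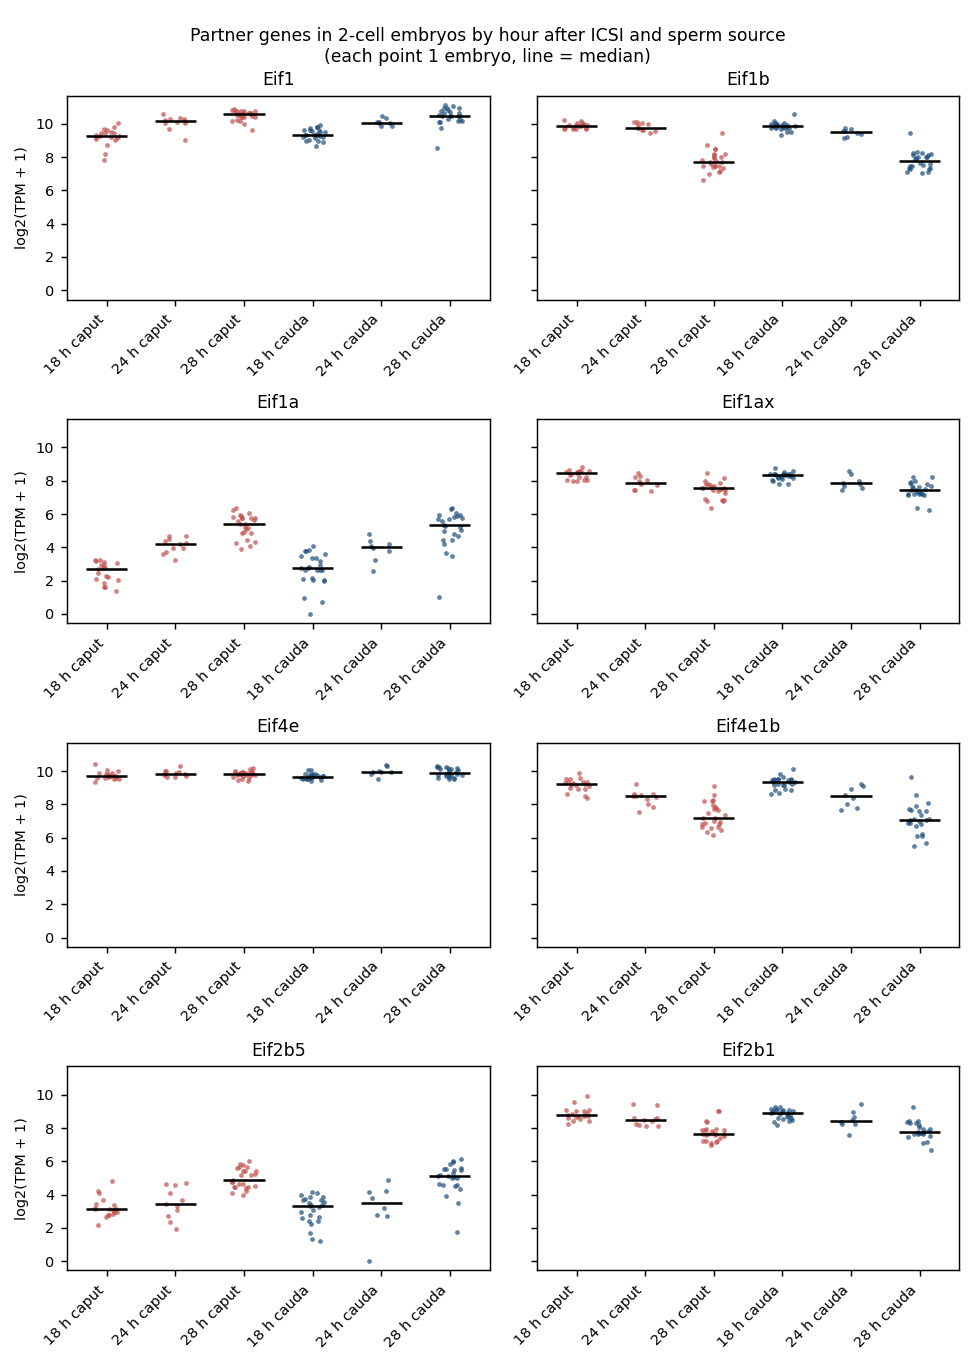
Levels in log2(TPM + 1) in 2-cell embryos at 18, 24 and 28 h after ICSI for 4 pairs of partner genes; each point is 1 embryo, the line is the median, caput-sperm embryos are red and cauda-sperm embryos blue. In each row but the third the left gene is higher at 28 h than at 18 h and the right gene lower. In the third row the caput medians of Eif4e, on the left, are 918.9 TPM at 28 h and 834.4 TPM at 18 h, and those of Eif4e1b, on the right, are 146.4 and 606.5 TPM.

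Among the cap-binding proteins, the egg form fell in both sources, and the standard form rose slightly in cauda embryos. Eif4e1b, the oocyte form of eIF4E, had 69.6, 146.4 and 550.3 TPM in 28 h caput embryos, against 330.3, 606.5 and 947.6 TPM in 18 h caput embryos. It fell by 1.84 ± 0.19 in caput embryos (adjusted p of 1.73e-15) and by 2.17 ± 0.18 in cauda embryos (adjusted p of 4.38e-21), with overlapping groups in both. Eif4e, the standard cap-binding protein, had 669.6, 918.9 and 1157.1 TPM in 28 h caput embryos, against 658.8, 834.4 and 1378.2 TPM in 18 h caput embryos. The groups lay on top of each other, with a change of 0.08 ± 0.07 (adjusted p of 0.341) in caput embryos and a rise of 0.23 ± 0.07 (adjusted p of 0.00108) in cauda embryos. Without the session day126 the cauda change of Eif4e was 0.18, with an adjusted p of 0.0501. Eif4e3, a cap-binding relative, fell by 1.13 ± 0.17 in caput embryos to a median of 116.2 TPM at 28 h, against 224.8 TPM at 18 h (adjusted p of 9.45e-09). Its fall in cauda embryos was 1.10 ± 0.16 (adjusted p of 2.65e-09). Eif4e2, also called 4EHP, a cap-binding protein that does not bind eIF4G in the usual way, rose by 0.87 ± 0.27 in caput embryos (adjusted p of 0.00288) and by 1.29 ± 0.25 in cauda embryos (adjusted p of 3.53e-06). Without the session day122 the caput change of Eif4e2 was 0.68, with an adjusted p of 0.0681.

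The repressors that bind eIF4E also moved apart. Eif4ebp1, whose product 4E-BP1 blocks eIF4E until mTOR phosphorylates it, had 0, 21.8 and 97.1 TPM in 28 h caput embryos, against 0, 3.7 and 11.4 TPM in 18 h caput embryos. Of the 28 h embryos 21 of 25 were above all 18 h embryos, and the rise was 2.67 ± 0.43 in caput (adjusted p of 2.55e-08) and 2.33 ± 0.40 in cauda embryos (adjusted p of 1.4e-07). Eif4enif1, which encodes the eIF4E transporter 4E-T, a part of the repressed mRNA granules of the oocyte, fell by 0.46 ± 0.15 in caput embryos to a median of 559.4 TPM at 28 h, against 871.0 TPM at 18 h (adjusted p of 0.0043). In cauda embryos it fell by 0.79 ± 0.14 to 456.1 TPM at 28 h, against 854.6 TPM at 18 h (adjusted p of 2.48e-07). The caput change of Eif4enif1 missed the threshold without the session day126, at -0.37 (adjusted p of 0.118), and without the session day122, at -0.33 (adjusted p of 0.0675). Eif4ebp2 had no call, with changes of 0.74 ± 0.38 in caput and -0.34 ± 0.36 in cauda embryos. Eif4ebp3 had medians under 1 TPM at 18 h and 28 h, and 65.5% of its windows lie in other annotated genes.

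The 5 subunits of eIF2B did not move together. Eif2b4, the delta subunit, had 50.9, 243.0 and 526.6 TPM in 28 h caput embryos, against 12.6, 37.7 and 84 TPM in 18 h caput embryos, with overlap at the lowest 28 h embryos and a rise of 2.15 ± 0.25 (4.44-fold, adjusted p of 1.84e-13). Eif2b5, the catalytic epsilon subunit, had 14.4, 28.1 and 64 TPM in 28 h caput embryos, against 3.56, 7.61 and 27.1 TPM in 18 h caput embryos. It rose by 1.70 ± 0.25 in caput embryos (adjusted p of 4.38e-09) and by 1.92 ± 0.24 in cauda embryos (adjusted p of 4.53e-12). Eif2b1, the regulatory alpha subunit, had 122.7, 201.7 and 525.0 TPM in 28 h caput embryos, against 297.7, 433.1 and 981.8 TPM in 18 h caput embryos. The fall was 1.13 ± 0.14 in caput embryos (adjusted p of 1.75e-12) and 0.96 ± 0.13 in cauda embryos (adjusted p of 4.76e-11). Eif2b2, the beta subunit, rose by 1.06 ± 0.27 in cauda embryos (adjusted p of 0.000326) and had a change of 0.05 ± 0.29 in caput embryos. The interaction for Eif2b2 had an adjusted p of 0.421. Eif2b3, the gamma subunit, had no call in either source. In caput embryos Eif2b4 had the highest median of the 5 at 28 h, and Eif2b1 was far above both Eif2b4 and Eif2b5 at 18 h. In cauda embryos Eif2b1 still had the highest median at 28 h, at 219.6 TPM, with Eif2b4 at 209.7 TPM.

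Of the eIF2 subunits, Eif2s1 (alpha, the phosphorylated one) rose by 0.71 ± 0.18 in caput and 1.05 ± 0.17 in cauda embryos, with adjusted p of 0.000386 and 5.01e-08. Eif2s3x (gamma, X-linked) rose by 0.96 ± 0.17 and 0.69 ± 0.16, with adjusted p of 3.66e-07 and 6.59e-05. Eif2s2 (beta) had no call, at 0.18 ± 0.15 in caput and 0.29 ± 0.14 in cauda embryos. Eif2d, which encodes a factor that acts on initiator tRNA outside the eIF2 pathway, fell by 0.40 ± 0.14 in cauda embryos (adjusted p of 0.00689; -0.32 and 0.0702 without the session day126), and its change in caput embryos was -0.25 ± 0.15. Eif2a, an alternative initiator tRNA carrier, rose by 1.64 ± 0.23 in caput and 1.15 ± 0.21 in cauda embryos. Of the 4 kinases that phosphorylate eIF2 alpha and so lower initiation, Eif2ak3, which encodes PERK, the kinase of endoplasmic reticulum stress, had 2.23, 13.8 and 57.1 TPM in 28 h caput embryos, against 0, 1.16 and 3 TPM in 18 h caput embryos. Of the 28 h embryos 23 of 25 were above all 18 h embryos, and the rise was 2.65 ± 0.28 in caput (adjusted p of 2.22e-15) and 2.53 ± 0.26 in cauda embryos (adjusted p of 6.19e-16). None of the other three kinases was called higher. Eif2ak1, the heme-regulated kinase, fell by 0.42 ± 0.16 in caput embryos (adjusted p of 0.0153) and by 0.63 ± 0.15 in cauda embryos (adjusted p of 0.0001). Without the session day126 its caput change was -0.38, with an adjusted p of 0.143. Eif2ak4, which encodes the amino acid sensor GCN2, had 4.3, 19.3 and 47.4 TPM in 28 h cauda embryos, against 8.27, 36.1 and 77 TPM in 18 h cauda embryos. It fell there by 1.04 ± 0.21 (adjusted p of 6.22e-06), and its change in caput embryos was -0.41 ± 0.22 (adjusted p of 0.0933). Eif2ak2, which encodes the double-stranded RNA sensor PKR, fell by 0.47 ± 0.18 in cauda embryos (adjusted p of 0.0191), at medians of 1.73 TPM at 28 h and 2.98 TPM at 18 h. Its change in caput embryos was -0.07 ± 0.20. The cauda call of Eif2ak2 was lost without the session day122, at -0.21 (adjusted p of 0.469), and after median-ratio scaling, at -0.38 (adjusted p of 0.0602).

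The scaffold genes Eif4g1 and Eif4g2 rose, and Eif4g1 separated the 2 times in caput embryos. Eif4g1 had 51.2, 127.5 and 252.1 TPM in 28 h caput embryos, against 15.6, 32.1 and 46.8 TPM in 18 h caput embryos. These groups did not overlap, and the rise was 2.04 ± 0.19 in caput (4.11-fold, adjusted p of 4.54e-18) and 1.73 ± 0.18 in cauda embryos (adjusted p of 5.69e-16). Eif4g2, which encodes the cap-independent scaffold DAP5, rose by 1.85 ± 0.18 in caput and 1.33 ± 0.17 in cauda embryos, with adjusted p of 1.18e-16 and 1.36e-11. Eif4g3 fell by 0.51 ± 0.14 in cauda embryos (adjusted p of 0.00111, or 0.0634 when each session gave 1 mean per group) and had a change of -0.21 ± 0.15 in caput embryos. Among the helicases, Eif4a3, the exon junction complex form, rose by 1.54 ± 0.17 in caput and 1.09 ± 0.16 in cauda embryos, while Eif4a1, the main initiation helicase, fell by 0.55 ± 0.12 and 0.40 ± 0.11. Their adjusted p were 1.66e-14 and 9.53e-10 for Eif4a3 and 1.9e-05 and 0.000714 for Eif4a1. About 65.3% of the Eif4a1 windows occur in other annotated genes. Eif4a2 rose by 0.33 ± 0.13 in caput embryos (adjusted p of 0.0172). That call was lost without the session day114, at 0.19 (adjusted p of 0.206), and without the session day126, at 0.30 (adjusted p of 0.167). Of the helicase helpers, Eif4h rose by 1.55 ± 0.22 in caput and 0.90 ± 0.21 in cauda embryos, and Eif4b fell by 0.67 ± 0.11 in cauda embryos (adjusted p of 3.78e-08).

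Late-acting factors rose in both sources. Eif5a, whose product carries the hypusine residue, had 1550.4, 1963.9 and 2502.9 TPM in 28 h caput embryos, against 694.8, 1056.8 and 1513.2 TPM in 18 h caput embryos. The groups did not overlap, and the rise was 0.91 ± 0.08 in caput (adjusted p of 7.9e-19) and 1.02 ± 0.08 in cauda embryos (adjusted p of 1.44e-23). Eif6 rose by 1.50 ± 0.17 in caput and 1.90 ± 0.16 in cauda embryos, with adjusted p of 2.41e-13 and 2.51e-20. Eif5, the GTPase-activating partner of eIF2, rose by 0.91 ± 0.12 and 0.88 ± 0.11, and Eif5b, the subunit-joining GTPase, by 0.77 ± 0.16 and 0.88 ± 0.15, in caput and cauda embryos. The second eIF5A gene, Eif5a2, had changes of -0.09 ± 0.22 in caput and -0.25 ± 0.20 in cauda embryos, neither called. At 24 h, in embryos of 1 other session, medians in cauda embryos were 1077.9 TPM for Eif1, 718.7 TPM for Eif1b, 358.4 TPM for Eif4e1b and 1796.6 TPM for Eif5a. These lie between the 18 h and 28 h cauda medians, as did 25 of the 41 genes. Of the others, 10 were below both, such as Eif4a1 at 743.5 TPM and Eif2ak1 at 38.3 TPM, and 6 were above both, such as Eif2d at 112.2 TPM. These counts were not made over all genes. The 24 h session was not tested against the other times, with which it shares no session.

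Levels at later stages are given as medians of cauda embryos. Stage, deposited table and session cannot be told apart there, so no test was made across stages. The counts below cover the factors only and were not made over all genes, so they do not set the factors apart. All 3 four-cell cohorts had medians above the 3 two-cell medians for 21 of the 41 genes and below them for 8. The 8 were Eif1b, Eif2ak2, Eif2ak4, Eif4e1b, Eif4e3, Eif4enif1, Eif4g3 and Eif5a2. Of the 19 genes that rose in both sources between 18 h and 28 h, 14 were among those 21, and of the 8 that fell in both, 4 were among those 8. Other genes turned back: Eif2b1 had 482.4 TPM at 18 h, 219.6 TPM at 28 h and 410.4 to 451.8 TPM in 4-cell cohorts, and Eif1 had 643.7, 1424.3 and 863.5 to 957.0 TPM at the same points. Eif4e1b had cohort medians of 659.9, 358.4 and 133.3 TPM at 18, 24 and 28 h, 1.15 to 2.9 TPM in 4-cell cohorts, 3.08 TPM at the 8-cell stage and 0 TPM in morulae and blastocysts. Eif4enif1 had 854.6 TPM at 18 h, 23.1 to 36.4 TPM in 4-cell, 26.2 TPM in 8-cell, 6.05 to 6.37 TPM in morula and 3.74 to 10.1 TPM in blastocyst cohorts. Eif4e3 had 229.5 TPM at 18 h and at most 1.91 TPM in morula and blastocyst cohorts.

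**Figure D3:**
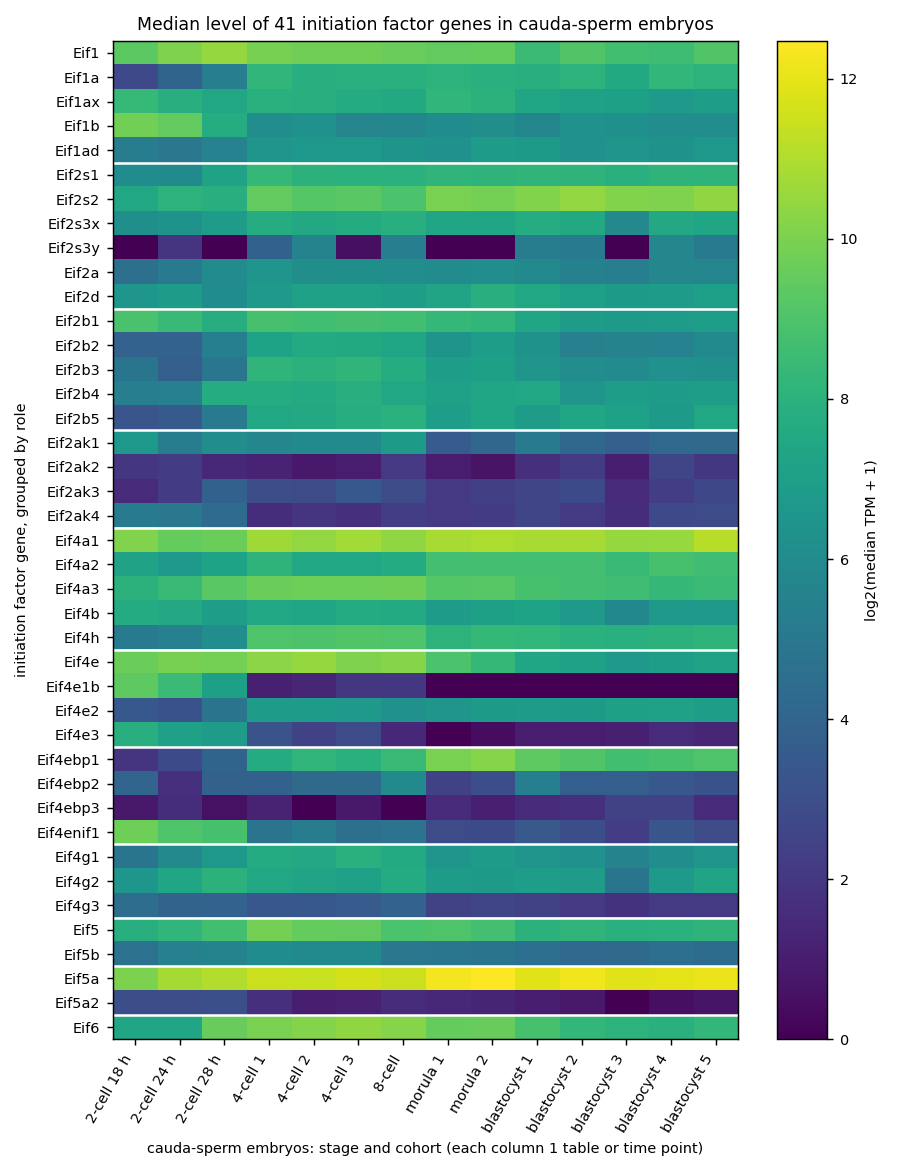
Median level of each gene in cauda-sperm embryos, as log2(median TPM + 1), for the 3 two-cell times and 11 later cohorts; white lines part the roles. Eif4e1b is at 0 from the morula on, Eif5a is the brightest row with 3798.4 to 5689.7 TPM in morulae and blastocysts, and Eif4ebp1 brightens from 2.66 TPM at 18 h to at least 989.8 TPM in morulae.

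Other genes were low at 18 h and high later. Eif4ebp1 had 2.66, 6.02 and 15.4 TPM at 18, 24 and 28 h, 201.3 to 299.9 TPM in 4-cell, 339.8 TPM in 8-cell, 989.8 to 1190.1 TPM in morula and 420.5 to 662.4 TPM in blastocyst cohorts. Over the same stages Eif4e, its target, had 807.4 TPM at 18 h, 1080.1 to 1444.1 TPM in 4-cell, 319.0 to 491.6 TPM in morula and 105.3 to 164.3 TPM in blastocyst cohorts. In the cauda medians the repressor was thus below the cap-binding protein up to the 8-cell stage and above it in both morula and all 5 blastocyst cohorts. Eif1a had 5.67 TPM at 18 h and 225.7 to 295.5 TPM in 4-cell cohorts, where Eif1ax had 201.6 to 242.3 TPM. The eIF2B subunits came together after the 2-cell stage: at 18 h their medians ran from 8.75 TPM for Eif2b5 to 482.4 TPM for Eif2b1, and in 4-cell cohorts from 151.6 to 451.8 TPM over the 5 genes.

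Within eIF2 the beta subunit gene was the highest at later stages. Eif2s2 had 177.3 TPM at 18 h, 578.5 to 702.4 TPM in 4-cell, 944.7 to 1002.4 TPM in morula and 1061.5 to 1401.8 TPM in blastocyst cohorts, while Eif2s1 stayed between 239.2 and 313.3 TPM from the 4-cell stage on. About 27.8% of the Eif2s2 windows occur in other annotated genes. Eif5a was the gene with the highest median from the 24 h point on, at 2732.8 to 3231.7 TPM in 4-cell and 4929.3 to 5689.7 TPM in morula cohorts. From morula to blastocyst 16 genes had both morula medians above all 5 blastocyst medians, among them Eif1, Eif4g1, Eif5, Eif5a and Eif6, and 6 had both below. This too was counted in the factors only. In the cauda embryos of the third blastocyst cohort the median of Eif2s3x was 57.3 TPM, of Eif4g2 28.3 TPM and of Eif4b 55.4 TPM, the lowest cohort median of each.

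The gamma subunit of eIF2 has a second gene on the Y chromosome, Eif2s3y. It was at or over 1 TPM in 4 of 44 embryos at 18 h, 12 of 19 at 24 h and 23 of 49 at 28 h. In later stages it was at or over 1 TPM in 122 of 220 four-cell, 30 of 53 eight-cell, 63 of 128 morula and 220 of 420 blastocyst embryos. None of the 18 h embryos reached 10 TPM, whereas 17 of the 49 embryos at 28 h and 117 of 220 four-cell embryos did. The test called it higher at 28 h than at 18 h in caput embryos, by 1.75 ± 0.49 (adjusted p of 0.00107), and in cauda embryos, by 1.30 ± 0.46 (adjusted p of 0.00842). The caput call was lost without the session day122, at 1.17 (adjusted p of 0.0551), and the cauda call without the session day114, at 1.16 (adjusted p of 0.0625). The numbers of embryos with a Y chromosome in each group are not in the labels, and their part in this difference was not tested.

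Sperm source was then compared within each cohort, which asks whether embryos from caput or testis sperm had other levels than embryos from cauda sperm. No factor passed the threshold between caput and cauda embryos at 18 h (0 of 12899 genes called, 0%), 24 h (0.00746% called) or 28 h (0.0759% called, 0.0683% higher and 0.00759% lower, from 9 and 1 genes, or 0 and 1 after median-ratio scaling). The number at an unadjusted p under 0.05 was 4, 1 and 3 factors, beside 415, 736 and 1536 of all genes. At 18 h the smallest p were for Eif2ak4, with a median of 31.3 TPM in caput against 36.1 TPM in cauda embryos (-0.55 ± 0.23), and Eif4h, with 28.9 against 33.7 TPM (-0.50 ± 0.22), both with an adjusted p of 1. At 24 h they were for Eif4a2, with 145.4 against 104.3 TPM (0.49 ± 0.20, adjusted p of 0.743), and Eif1b, with 866.7 against 718.7 TPM (0.35 ± 0.19, adjusted p of 0.958). At 28 h they were for Eif4b, with 140.8 against 123.5 TPM (0.25 ± 0.11, adjusted p of 0.329), and Eif4g1, with 127.5 against 97.8 TPM (0.38 ± 0.18, adjusted p of 0.379). All these groups overlapped.

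In the first 4-cell cohort 1 of 41 factors, Eif1, was higher in caput embryos, beside 1.12% of all 11597 genes tested, 0.983% higher and 0.138% lower. Eif1 had 818.2, 1106.9 and 1587.7 TPM in caput embryos, against 512.1, 957.0 and 1454.9 TPM in cauda embryos. The groups overlapped over most of their range, and 26 of 32 caput embryos were above the cauda median. The difference was 0.27 ± 0.06 (1.21-fold, adjusted p of 0.00412), higher in all 4 sessions, by 0.17 to 0.45. The call was lost without the session day423, at 0.22 (adjusted p of 0.135), and without the session day506, at 0.27 (adjusted p of 0.0774). In the second 4-cell cohort Eif1 had a median of 967.8 TPM in caput against 864.5 TPM in cauda embryos, and the difference of 0.16 ± 0.08, higher in 4 of 4 sessions, was not called (adjusted p of 0.532). There 0 of 41 factors passed, beside 0.573% of all genes tested and 4 factors and 1078 genes at an unadjusted p under 0.05. Lowest in p in that cohort were Eif5a, with 2909.0 TPM in caput against 2732.8 TPM in cauda embryos (0.14 ± 0.06, adjusted p of 0.402), and Eif4a2, with 213.7 against 173.9 TPM (0.33 ± 0.16, adjusted p of 0.524).

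At the 8-cell stage none of 41 factors, and none of 11774 genes, passed between caput and cauda embryos (0% called), with 0 factors and 541 genes at an unadjusted p under 0.05. Only 3 sessions held both sources there. The smallest p were for Eif2ak3, with a median of 11.1 TPM in caput against 6.25 TPM in cauda embryos (0.56 ± 0.29, adjusted p of 1), and Eif5, with 439.1 against 485.0 TPM (-0.20 ± 0.12, adjusted p of 1). Leaving out the libraries that stood apart, 4 of them at this stage, also gave 0 calls. In the first morula cohort 0 of 40 factors passed, beside 0.859% of all genes, 0.79% higher and 0.0695% lower, with 3 factors and 864 genes at an unadjusted p under 0.05. Eif2b4 was at a median of 113.0 TPM in caput against 139.8 TPM in cauda embryos (-0.26 ± 0.09, adjusted p of 0.352), and Eif4g1 at 80.1 against 91.8 TPM (-0.24 ± 0.09, adjusted p of 0.452), both lower in 4 of 4 sessions.

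In the first blastocyst cohort 3 of 40 factors were higher in caput embryos and none lower, beside 2.12% of all 12200 genes called in either direction, 1.39% higher and 0.73% lower. Eif1 had 166.6, 451.4 and 704.7 TPM in caput embryos, against 121.3, 366.5 and 582.0 TPM in cauda embryos. The groups overlapped, although 26 of the 35 caput embryos lay above the median of the cauda embryos, and the difference was 0.46 ± 0.11 (1.38-fold, adjusted p of 0.0253). It was positive in 5 of 6 sessions and -0.07 in the remaining one. Eif4g1 had 50.7, 99.8 and 174.1 TPM in caput embryos, against 44.4, 89.2 and 130.9 TPM in cauda embryos, also overlapping. That difference was 0.35 ± 0.09 (adjusted p of 0.0313), positive in 6 of 6 sessions, by 0.15 to 0.71. Eif2ak3 had 1.23, 5.96 and 27.4 TPM in caput embryos, against 0, 5.06 and 9.6 TPM in cauda embryos. The difference of 0.66 ± 0.19 (adjusted p of 0.0417) came with a high tail of caput embryos, and 25 of 35 were above the cauda median. These calls depended on single sessions and on settings: none of the 3 passed without the session day3315, without the session day512 or with no session term. Without the session day3315 Eif1 was at 0.45 (adjusted p of 0.119), Eif4g1 at 0.37 (0.0891) and Eif2ak3 at 0.83 (0.0838). Without the session day512 they were at 0.45 (0.163), 0.29 (0.26) and 0.51 (0.313). Eif1 also missed the threshold without the session day210 (adjusted p of 0.0593), Eif4g1 without the session day317 (0.0728) and Eif2ak3 without the sessions day210, day317 or day421 in turn (0.0845, 0.0541 and 0.0717). Eif2ak3 was called under 2 of 12 alternatives, and it also missed the threshold with a pseudocount of 0.1 (adjusted p of 0.0615), with every gene tested (0.0676) and with the embryo number as a replicate block (0.0506). Without the session day120 there were 6 calls, 4 higher and 2 lower.

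The same 3 genes in the other caput comparisons gave no further call except where stated. In the second blastocyst cohort Eif1 had a median of 529.0 TPM in caput against 538.8 TPM in cauda embryos (a difference under 0.01 in size, SE 0.10), Eif4g1 99.4 against 77.9 TPM (0.25 ± 0.11, adjusted p of 0.268) and Eif2ak3 7.83 against 5.99 TPM (0.20 ± 0.21). In the fourth, Eif1 had 440.2 against 388.4 TPM (0.22 ± 0.08, adjusted p of 0.217), Eif4g1 77.3 against 69.1 TPM (0.20 ± 0.09, adjusted p of 0.328) and Eif2ak3 5.87 against 3.76 TPM (0.41 ± 0.20, adjusted p of 0.4). In the second cohort 0 of 40 factors passed, beside 0.28% of all genes, and 7 factors and 1819 genes had an unadjusted p under 0.05. The factors' median difference there was 0.11 and that of all genes 0.13, which median-ratio scaling brought to 0.01. Its smallest p were for Eif4ebp2, with 16.5 TPM in caput against 12.1 TPM in cauda embryos (0.45 ± 0.18, adjusted p of 0.229), and Eif4e3, with 1.93 against 0.95 TPM (0.59 ± 0.23, adjusted p of 0.232).

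In the fourth blastocyst cohort Eif2b5 was the 1 factor of 40 called between caput and cauda embryos, beside 1.84% of all 12098 genes, 1.8% higher and 0.0331% lower. Eif2b5 had 94.2, 170.4 and 241.9 TPM in caput embryos, against 26.6, 104.2 and 259.0 TPM in cauda embryos. The cauda embryos were spread over a wider range on both sides, and 30 of 32 caput embryos were above the cauda median. The difference was 0.66 ± 0.13 (1.58-fold, adjusted p of 0.00105), positive in 5 of 6 sessions. It was -0.22 in the session day522 and 1.86, the largest, in the session day530, each of which held 2 cauda embryos. Without the session day605 it was 0.60 with an adjusted p of 0.0939. Other cohorts gave smaller differences of Eif2b5 between caput and cauda embryos, none called, at 0.23 ± 0.26, 0.28 ± 0.39 and 0.01 ± 0.24 at 18, 24 and 28 h, 0.14 ± 0.09 and -0.05 ± 0.12 in the first and second 4-cell, 0.29 ± 0.25 in the 8-cell, 0.20 ± 0.11 in the morula and 0.11 ± 0.11 and 0.18 ± 0.09 in the first and second blastocyst cohorts. None of its 50-base windows occurs in another annotated gene.

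Testis sperm was compared with cauda sperm at 3 stages. In the third 4-cell cohort 0 of 41 factors passed, beside 0.0174% of all genes, 0.00872% in each direction, with 5 factors and 861 genes at an unadjusted p under 0.05. Eif2b2 had the smallest p, with 148.3, 215.1 and 328.7 TPM in testis embryos, against 113.9, 190.5 and 259.9 TPM in cauda embryos. The groups overlapped, and the difference of 0.30 ± 0.07, positive in 4 of 4 sessions, had an adjusted p of 0.268. Eif2s1 followed, at a median of 278.4 TPM in testis against 249.7 TPM in cauda embryos (0.16 ± 0.06, adjusted p of 0.583). In the second morula cohort 1 of 40 factors passed, beside 1.58% of all 11790 genes, 1.13% higher and 0.45% lower (133 and 53 genes, or 44 and 11 after median-ratio scaling). It was Eif4e1b, with 0, 0.765 and 7.14 TPM in testis embryos, against 0, 0 and 1.65 TPM in cauda embryos. In both groups the level was near 0, 21 of 34 testis embryos were above 0, the difference was 0.58 ± 0.16 (adjusted p of 0.0402). The call was lost without the sessions day612, day618, day619 or day623 in turn, at 0.49, 0.48, 0.61 and 0.74 with adjusted p of 0.215, 0.0819, 0.28 and 0.0577, and it was also lost with a pseudocount of 0.1 (adjusted p of 0.0558), with every gene tested (0.0641) and after median-ratio scaling (0.0538). Without the cauda library of 4864 genes Eif4h (0.15 ± 0.04) and Eif5b (0.33 ± 0.10) were called higher in testis embryos as well, with adjusted p of 0.0342 and 0.0457, and Eif4e1b was at 0.57 ± 0.16. In the fifth blastocyst cohort 0 of 40 factors and 0% of all genes passed, with 1 factor and 568 genes at an unadjusted p under 0.05. Eif4a2 had a median of 415.3 TPM in testis against 399.8 TPM in cauda embryos (0.20 ± 0.09), and Eif1 540.9 against 550.2 TPM (-0.23 ± 0.12), both with an adjusted p of 0.993.

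The injection experiments ask whether RNA of the labelled EpiM fractions, given to caput-sperm embryos, changes their levels. In the fourth blastocyst cohort 1 of 40 factors was lower after EpiM miRNA than in uninjected caput embryos and none higher, beside 3.05% of all 12113 genes, 0.033% higher and 3.02% lower. It was again Eif2b5, with 35.4, 78.8 and 217.9 TPM in miRNA-injected embryos, against 94.2, 170.4 and 241.9 TPM in uninjected caput embryos. The injected embryos reached far below the uninjected ones but overlapped them at the top, with 24 of 30 under the uninjected median. Eif2b5 was lower by 0.82 ± 0.14 (1.77-fold, adjusted p of 6.85e-06). Its difference was -0.63 in the session day522, -0.96 in the session day605 and between -1.25 and 0.27 in the other sessions. Eif2b5 stayed called without any 1 session, and missed the threshold when each session gave 1 mean per group (-0.78, adjusted p of 0.488). Against EpiM tRF the miRNA-injected embryos were lower by 0.75 ± 0.14, at a median of 78.8 against 153.4 TPM (adjusted p of 0.000214), 1 of 40 factors beside 1.48% of all genes, 0.00836% higher and 1.47% lower. Without the session day605 it was -0.71, with an adjusted p of 0.198. The tRF-injected embryos themselves had 75.1, 153.4 and 193.6 TPM, against 94.2, 170.4 and 241.9 TPM in uninjected caput embryos, a difference of -0.07 ± 0.13 (adjusted p of 0.958). These comparisons share the caput or the miRNA group, and so does the one between caput and cauda embryos.

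**Figure D4:**
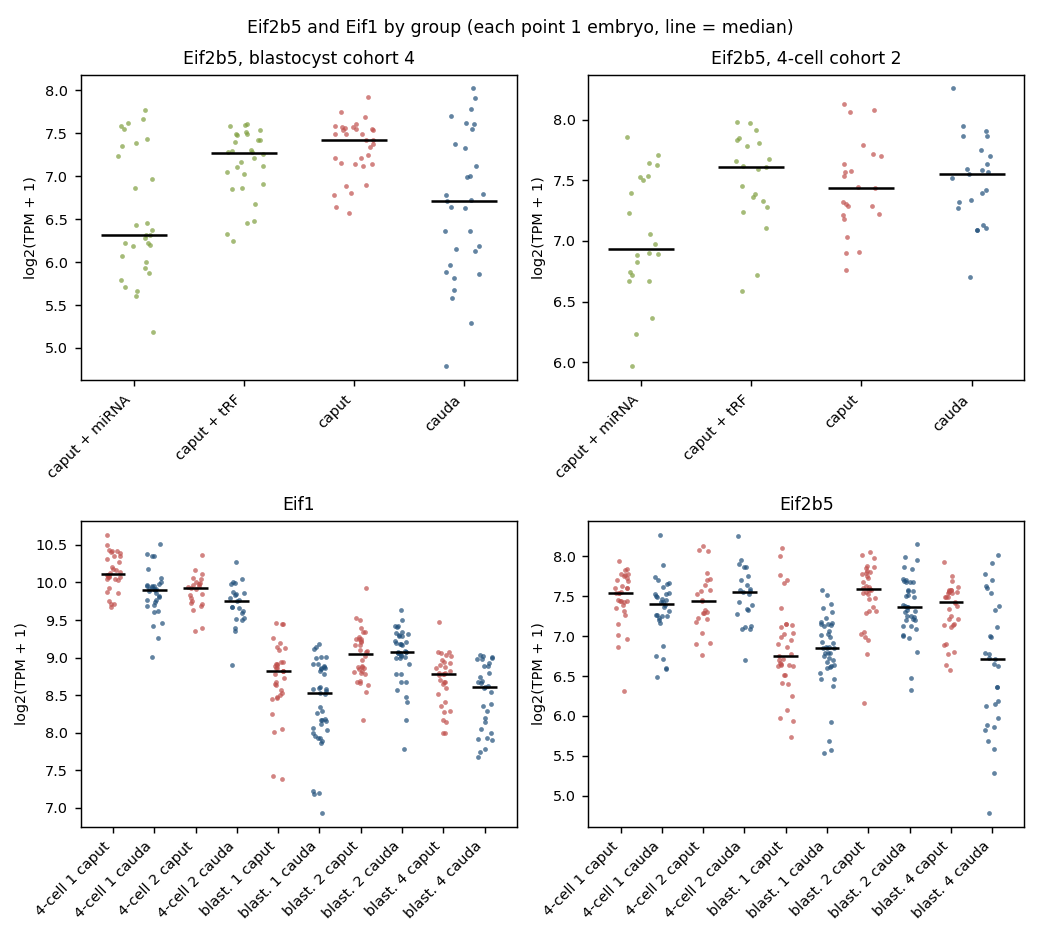
Levels in log2(TPM + 1), each point 1 embryo and each line a median, of Eif2b5 in the 2 injection cohorts (upper panels) and of Eif1 and Eif2b5 in 5 caput and cauda cohorts (lower panels); caput-sperm embryos are red, cauda-sperm embryos blue and caput-sperm embryos injected with EpiM miRNA or tRF green. In blastocyst cohort 4 Eif2b5 has medians of 78.8, 153.4, 170.4 and 104.2 TPM from left to right, and in 4-cell cohort 2 of 121.5, 194.2, 172.7 and 186.6 TPM.

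In the second 4-cell cohort, with the same 4 kinds of embryo, no factor was called after EpiM miRNA against uninjected caput embryos, beside 1.26% of all genes (0.18% higher, 1.08% lower) and with 7 factors and 1491 genes at an unadjusted p under 0.05. Eif2b5 had the smallest p there too. It had 61.5, 121.5 and 231.0 TPM in miRNA-injected embryos, against 107.3, 172.7 and 279.5 TPM in uninjected caput embryos. The groups overlapped, and the difference was -0.40 ± 0.12, lower in 4 of 4 sessions, with an adjusted p of 0.0853. Against tRF-injected embryos, at 95, 194.2 and 251.6 TPM, it was -0.44 ± 0.13, lower in 3 of 3 sessions (adjusted p of 0.0863). Without the session day714 both differences were called, at -0.54 (adjusted p of 0.00831) and -0.61 (adjusted p of 0.0121). Most alternatives gave no call: 1 of 11 called the difference from caput embryos and 2 of 10 that from tRF-injected embryos. In cauda embryos of that cohort the median of Eif2b5 was 186.6 TPM, near that of the caput embryos. Eif1a differed the other way in the 4-cell cohort, with 174.7, 240.2 and 377.2 TPM after miRNA, against 136.7, 206.8 and 299.1 TPM in uninjected caput embryos (0.25 ± 0.08, adjusted p of 0.0955). After tRF it had 156.4, 260.8 and 384.0 TPM (0.34 ± 0.08, higher in 3 of 3 sessions, adjusted p of 0.0923). In the fourth blastocyst cohort the tRF-injected embryos had a median of 304.4 TPM of Eif1a, against 326.5 TPM in uninjected caput embryos (-0.15 ± 0.06, adjusted p of 0.735).

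For EpiM tRF against uninjected caput embryos 0 factors passed in the 4-cell cohort (0.00861% of all genes called, 3 factors and 1014 genes at an unadjusted p under 0.05) and 0 in the blastocyst cohort (0% called, 4 factors and 723 genes). Besides Eif1a, the smallest p were for Eif5 at the 4-cell stage, with 749.9 TPM after tRF against 693.9 TPM in caput embryos (0.21 ± 0.07, adjusted p of 0.317), and for Eif1 in blastocysts, with 334.9 against 440.2 TPM (-0.18 ± 0.08, adjusted p of 0.823). EpiM miRNA against tRF called 0 factors at the 4-cell stage, beside 0.822% of all genes (0.0612% higher, 0.761% lower), with 1 factor and 880 genes at an unadjusted p under 0.05. After Eif2b5 came Eif2ak3, with 7.7 TPM after miRNA against 8.22 TPM after tRF (-0.53 ± 0.30, adjusted p of 0.702).

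In the third blastocyst cohort EpiM small RNA was compared with GFP RNA, both injected into caput-sperm embryos. None of 39 factors passed, beside 0.466% of all genes, with 2 factors and 542 genes at an unadjusted p under 0.05. Eif2ak2 had a median of 1.3 TPM after small RNA against 2.29 TPM after GFP (-0.32 ± 0.15), and Eif2s2 of 1051.7 against 955.3 TPM (0.22 ± 0.10), both with an adjusted p of 0.888. GFP-injected caput embryos against cauda embryos, which differ in both sperm source and injection, gave 0 of 39 factors, beside 0.455% of all genes, 0.421% higher and 0.0343% lower (49 and 4 genes, or 58 and 15 after median-ratio scaling). There 10 factors and 1764 genes had an unadjusted p under 0.05. Eif2ak2 had 2.29 TPM in GFP-injected against 1.06 TPM in cauda embryos (0.45 ± 0.13, adjusted p of 0.0775), higher in 5 of 5 sessions. Eif1a had 28.9, 162.7 and 228.4 TPM in GFP-injected embryos, against 119.3, 188.1 and 320.8 TPM in cauda embryos. The injected embryos extended lower, and the difference was -0.49 ± 0.15, lower in 5 of 5 sessions (adjusted p of 0.112). Eif2b5 had a median of 119.7 TPM after small RNA against 137.8 TPM after GFP (-0.04 ± 0.23).

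The module mean is the mean of log2(TPM + 1) over the 41 genes in 1 embryo, and is given with no test. At 28 h it averaged 6.36 ± 0.24 in caput embryos (SD, n = 25), against 5.83 ± 0.18 at 18 h (SD, n = 19). In cauda embryos it averaged 6.27 ± 0.27 at 28 h (SD, n = 24) and 5.85 ± 0.10 at 18 h (SD, n = 25). The session-adjusted difference was 0.52 ± 0.06 (SE) in caput and 0.42 ± 0.06 in cauda embryos. Means of the cauda groups were 6.59 to 6.63 in 4-cell cohorts, 6.57 at the 8-cell stage, 6.13 and 6.22 in morulae and 5.66 to 6.17 in blastocysts, the lowest in the third cohort. Caput minus cauda differences ran from -0.03 to 0.11, testis minus cauda differences were 0.03, 0.11 and -0.04 from the 4-cell to the blastocyst stage (0.03 ± 0.05 in morulae after median-ratio scaling), and injection differences ran from -0.12 to 0.03. The one of -0.12 ± 0.04 was for EpiM miRNA against uninjected caput blastocysts, at 5.94 ± 0.17 (SD, n = 30) against 6.06 ± 0.14 (SD, n = 32), and median-ratio scaling made it -0.05 ± 0.03. All the sperm source and injection differences were smaller than the SD between embryos of the groups compared.

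**Figure D5:**
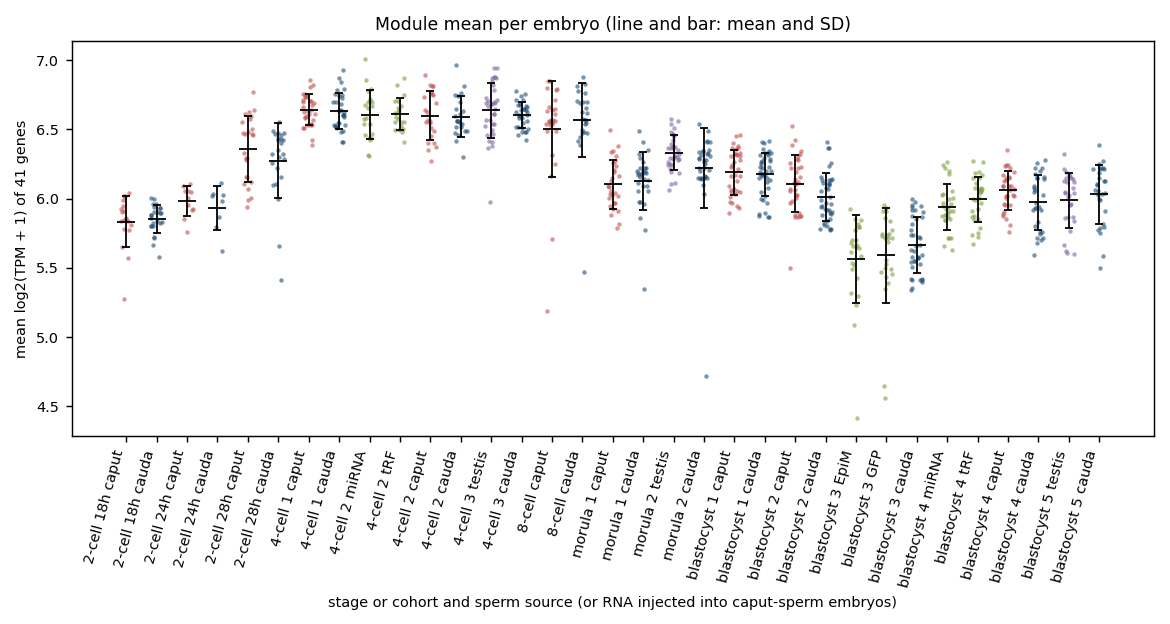
Mean of log2(TPM + 1) over the 41 genes in each embryo (points), with the mean and SD of each group; cauda-sperm embryos are blue, caput red, testis purple and RNA-injected caput-sperm embryos green. Group means run from 5.56 in blastocyst cohort 3 to 6.64 in 4-cell embryos.

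Other genes of the translation pathway were counted as lists. Of the 13 eIF3 subunits in the tables, from a list of 14, 9 rose and 1 fell between 28 h and 18 h in caput embryos, and 8 rose and 2 fell in cauda embryos, beside 37% of all genes higher and 31.9% lower in caput and 33.6% and 38.7% in cauda embryos. Of 13 elongation and termination factors 4 rose and 4 fell in each source, and of 32 other partners and regulators 15 rose and 7 fell in caput and 16 rose and 7 fell in cauda embryos. Ppp1r15a, which encodes GADD34, the stress-induced partner of the eIF2 alpha phosphatase, had 240.9, 658.0 and 1090.0 TPM in 28 h caput embryos, against 18.8, 96.3 and 146.5 TPM in 18 h caput embryos (2.85 ± 0.18, adjusted p of 6.73e-29). These groups did not overlap, and Ppp1r15b, the constitutive partner, rose by 4.16 ± 0.26 (adjusted p of 2.46e-29). Pabpc1l, the oocyte poly(A)-binding protein, fell by 3.01 ± 0.18 in cauda embryos to a median of 50.1 TPM at 28 h, against 417.6 TPM at 18 h, while Pabpc1, the somatic form, rose by 4.36 ± 0.28 there.

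Among sperm source and injection comparisons few genes of these lists were called, some of them repeatedly. Between caput and cauda embryos there was no such call at the 2-cell or 8-cell stage. Ybx1, which encodes a protein that binds and packages mRNA, was the 1 of 32 partners higher in caput than cauda embryos in the first 4-cell cohort (0.59 ± 0.10, adjusted p of 0.000126), beside 0.983% of all genes called higher. It was lower after EpiM miRNA than in uninjected caput blastocysts (-1.52 ± 0.21, adjusted p of 7.46e-08), beside 3.02% of all genes called lower. Gspt1, which encodes the termination factor eRF3a, was likewise the 1 of 13 elongation and termination genes called in both, at 0.76 ± 0.12 (adjusted p of 1.11e-05) and -0.96 ± 0.16 (adjusted p of 5.12e-06). Ybx1 and Gspt1 were also called higher in caput than cauda embryos of the other 4-cell cohort with caput embryos (0.67 ± 0.15 and 0.88 ± 0.17). The same held in morulae and in the blastocyst cohort with EpiM miRNA. Ybx1 was also higher in caput embryos of 1 other blastocyst cohort (0.61 ± 0.15, adjusted p of 0.025). At the 4-cell stage too, both genes were lower after EpiM miRNA than in uninjected caput embryos (-1.02 ± 0.15 and -0.84 ± 0.17). Of the eIF3 subunits 2 of 13 were lower after EpiM miRNA than in uninjected caput blastocysts. Eif3b was at a median of 24.2 TPM against 48.3 TPM (-1.45 ± 0.24, adjusted p of 4.01e-06), and Eif3j1 at 59.7 against 97.8 TPM (-0.70 ± 0.12, adjusted p of 1.82e-05). Eif3b was also lower after EpiM miRNA at the 4-cell stage (-1.45 ± 0.20). It was lower after EpiM small RNA than after GFP RNA (-1.20 ± 0.31, adjusted p of 0.0449). Eif3b was called higher in caput than cauda embryos in both 4-cell cohorts with caput embryos (1.31 ± 0.14 and 1.27 ± 0.20). The same held in morulae (1.60 ± 0.17) and in 2 blastocyst cohorts (0.74 ± 0.18 and 0.82 ± 0.23). In 1 of these Eif3j1 was higher too (0.63 ± 0.12).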

How the data were processed

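Per the labels' protocols, single FVB embryos were lysed and sequenced by Smart-seq2 with a Nextera kit. Per the submitters' processing notes, Bowtie and mm10 were used; versions, counting tool and annotation are not given in the sources used here. The deposited values are TPM, which the authors scaled to a fixed sum per library, so read depth is unknown and no counting error can be given. The growth and collection protocols of all samples state 28 h, whereas the stage and time used here are those of the sample labels. The 12 tables were read by sample title; 4 columns without a sample were not used.

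TPM were analysed as log2(TPM + 1) with limma 3.58.1 (R 4.3.3): group and session (the day in the titles or descriptions) as fixed effects, all groups of a table in 1 fit, variance trend and robust variances. A gene was tested where the number of embryos at or over 1 TPM reached 50% of the size of the smaller group, p-values were adjusted by Benjamini-Hochberg over all tested genes, and a gene was called at an adjusted p under 0.05. Fold changes understate the change of low genes. In the third blastocyst cohort 2 sessions were merged where labels disagree. Comparisons were made only within a table. Shared sequence was counted as 50-base windows of GENCODE M21 transcripts that occur in another gene. The largest shares with genes that the tables list were 18.2% for Eif5b (Rev1), 15.9% for Eif1 (Emd) and 15.1% for Eif1ad (Banf1). Eif2ak1 (with Aimp2 and Ankrd61) and Eif4a3 (with Gm8994) followed, each at 12.1%. The shared windows of Eif4a1, Eif2s2 and Eif4ebp3 lie in genes that the tables do not list.

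Named with values were all factors called in a comparison, or else the 2 with the smallest p, and up to 4 called genes per pathway list. The factors, lists and tests were chosen with earlier results of these data known. Alternatives were median-ratio scaling, a pseudocount of 0.1, testing every gene, leaving out the session term, the embryo number as replicate block, 1 mean per group in each session, each session left out, and, for the mean over the factors, those averaging 5 TPM or more. Chosen after seeing the data were leaving out libraries under 9000 genes, libraries correlating under 0.9 with their group, and fits on the 2 groups alone. Embryo numbers name embryos and pair none.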

Additional observations from a re-analysis of the deposited data

Results flagged for a closer look

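In the 8 cauda embryos at 24 h, the one group of 4 to 10 embryos, 42 values were checked for an embryo far from the others, and 3 stood out. About 1 in 20 such checks is expected by chance. Eif2b2 was at 0 TPM in 1 embryo, with 10.2 TPM in the next lowest and a median of 14.1 TPM. Eif2b5 was at 0 TPM in 1 embryo, with 5.63 TPM in the next lowest and a median of 10.6 TPM. Eif4a3 was at 555.1 TPM in 1 embryo, with 369.5 TPM in the next highest and a median of 351.4 TPM.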

How the results depend on the processing

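The number of factors called moved by more than 1.5 times as follows. In the first 4-cell cohort it was 0 with 1 mean per group in each session and without the session day423 or day506, against 1. In the first blastocyst cohort it was 0 with no session term, with single means and without day3315 or day512, 1 without day210 or day317, and 6 without day120, against 3. In the fourth blastocyst cohort, caput against cauda, it was 0 with single means or without day605 and 2 without day529, and miRNA against caput or tRF gave 0 with single means and, for tRF, 0 without day605, against 1. In the second 4-cell cohort miRNA against caput gave 1 without day714, and miRNA against tRF 1 without day714 or with no session term, against 0. GFP against cauda gave 1 with median-ratio scaling (Eif1a, -0.46, adjusted p of 0.015). Testis against cauda morulae gave 0 with a pseudocount of 0.1, no filter, scaling, single means, or without day612, day619 or day623, and 3 without either set of low libraries. The other 238 recounts were within 1.5 times, including 28 h against 18 h with 25 to 30 (caput) and 31 to 36 (cauda) called. None of the 96 recomputed module differences moved by as much as the SD between embryos. The sperm source and injection differences are smaller than that SD, so this rule could not show their loss. Median-ratio scaling turned the sign of some, such as 0.11 in the second blastocyst cohort to -0.02. Between caput and cauda embryos at 28 h it turned 0.08 to -0.03. The differences between 28 h and 18 h kept their sign, at 0.48 in caput and 0.54 in cauda embryos. Of the recomputed single-gene values 1054 stayed on their side of the threshold, 52 missed it, 4 newly passed it and 0 changed sign. With single means every factor call between sperm sources or after injection was lost (limma, adjusted p of 0.235 to 0.993). With the replicate block the call of Eif2ak3 in the first blastocyst cohort was lost (0.66, adjusted p of 0.0506), leaving 2, and no other count of factors changed. The block's correlation lay between -0.046 and 0.061, and 25 of 563 embryos correlated best with the embryo of their own number. Counts over all genes moved more, and their fewest and most under the alternatives were as follows. Caput against cauda gave 0 to 2 (0 as reported), 0 to 3 (1) and 0 to 309 (10) at 18, 24 and 28 h, 20 to 149 (130) and 0 to 126 (66) in 4-cell, 0 to 1 (0) in 8-cell, 39 to 135 (99) in morula, and 0 to 483 (259), 0 to 79 (34) and 0 to 305 (222) in blastocyst cohorts. Testis against cauda gave 0 to 2 (2) in 4-cell embryos and 0 to 559 (186) in morulae. GFP against cauda gave 0 to 162 (53) and EpiM small RNA against GFP 0 to 72 (53). In 4-cell embryos miRNA against caput gave 0 to 357 (147), miRNA against tRF 7 to 100 (94) and tRF against caput 0 to 4 (1). In blastocysts miRNA against caput gave 0 to 437 (370) and miRNA against tRF 0 to 217 (177). The block moved the count over all genes to 62, against 34, in the second blastocyst cohort and to 82, against 53, for GFP against cauda. Median-ratio scaling brought the median of all genes to 0.01, against 0.13, in the second blastocyst cohort and to 0.00, against 0.12, in the interaction. Read depth is unknown, and low genes such as Eif2ak3 and Eif4e1b in later stages are limited by it.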
